A study of Mus musculus with 24 samples.

Results

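The 44 genes described here code for the machinery with which a cell makes, folds, checks and ships secreted proteins, and for the sensors of the unfolded protein response. They were taken as a fixed list of names (chaperones, the translocation channel, the stress sensors, degradation factors and the COPII vesicle coat) out of the 25746 genes listed in the count files, and all 44 were found. Gene expression was measured by RNAseq in the liver of 24 mice, with 1 library for each mouse and 6 mice in each group. The KO mice carried a homozygous CRISPR/Cas9 deletion of the gene cluster of the major urinary proteins (Mup) on chromosome 4, were derived from a single male founder and lacked the cluster in every tissue. The mWT and fWT groups were male and female wild-type littermates, and the mKO and fKO groups were male and female KO mice. All 24 mice were on the C57/BL6N background, had free access to chow and were 12 weeks old. Before collection they were fasted for some hours and scanned under isoflurane, and livers were snap frozen after cardiac puncture. Mup are among the proteins that the male liver secretes most, and the comparison addressed whether the liver changes its secretory machinery when this cargo is missing.

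A secreted protein enters the endoplasmic reticulum (ER) through the Sec61 channel while it is being made. The signal recognition particle and its receptor bring the ribosome there, signal peptidase removes the leader, and chaperones such as BiP (Hspa5) and disulfide isomerases fold the chain before COPII vesicles carry it to the Golgi, while chains that fail are moved back to the cytosol and degraded. When unfolded chains build up, the sensors Ire1 (Ern1), Perk (Eif2ak3) and Atf6 start the unfolded protein response, which raises the transcription of chaperones and degradation factors through Xbp1, Atf4 and the cleaved form of Atf6. The activity of the pathway is in part set by splicing of Xbp1 mRNA and by cleavage or phosphorylation of proteins, which counts per gene do not show.

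The promoters are shown first, because the members with a shared element are followed through the results. RefSeq windows on GRCm38.p6, each 300 bases long with 250 bases before the annotated start, were found for 37 of the 44 genes. The ER stress response element (ERSE, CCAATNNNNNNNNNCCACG), letters that Atf6 and the factor NF-Y are known to bind together, was found on either strand in the windows of 9 of these 37 genes (24.3%), against 37 of 27025 genes (0.137%) with a window. The variant ERSE-II (ATTGGNCCACG) was found in 2 of the 37 genes (5.41%), against 0.0444% of all genes, and its CCACG letters, which also end the ERSE, in 27 of the 37 (73%) against 35.5% of all genes. These matches are a description of letters in a window and no test of binding. The members were picked by name for this pathway, so the shares do not test a link between the element and the pathway. The matches are given with 5 bases on either side, read on the strand on which the element runs 5′ to 3′, with the fixed letters of the element in capitals.
Hspa5, ERSE, chr2:34772020-34772048, + strand: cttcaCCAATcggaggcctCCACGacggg
Hsp90b1 (farther match), ERSE, chr10:86705633-86705661, - strand: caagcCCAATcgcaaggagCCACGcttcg
Hsp90b1 (nearer match), ERSE, chr10:86705528-86705556, + strand: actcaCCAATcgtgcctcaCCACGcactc
Calr, ERSE, chr8:84847070-84847098, + strand: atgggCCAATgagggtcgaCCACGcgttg
Canx, ERSE, chr11:50325795-50325823, - strand: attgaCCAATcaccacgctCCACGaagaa
Creld2, ERSE, chr15:88819515-88819543, - strand: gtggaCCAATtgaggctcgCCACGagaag
Dnajc3, ERSE, chr14:118937822-118937850, + strand: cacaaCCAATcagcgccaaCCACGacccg
Pdia6, ERSE, chr12:17266486-17266514, + strand: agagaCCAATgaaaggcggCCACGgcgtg
Syvn1, ERSE, chr19:6046527-6046555, + strand: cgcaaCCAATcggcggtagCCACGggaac
Derl3, ERSE, chr10:75893237-75893265, - strand: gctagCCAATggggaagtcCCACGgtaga
Herpud1, ERSE-II, chr8:94386372-94386392, + strand: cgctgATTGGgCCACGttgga
Dnajb11, ERSE-II, chr16:22857847-22857867, + strand: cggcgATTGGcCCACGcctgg
Among all genes with a window, 28 that are not members hold an ERSE, and 8 of these 28 passed the filter on low counts. The spacing to the start differed from gene to gene. The match began 44 bases before the start in Syvn1, 65 in Hspa5 and 162 in Calr, and Hsp90b1 held matches on both strands, at 212 and 107 bases before its start. These starts are those of RefSeq, while the gene spans given below are those of GENCODE. The GENCODE span of Hspa5 begins at 34771970 and so includes its ERSE match. The ERSE-II of Dnajb11 began 7 bases after its start.

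**Figure D1:**
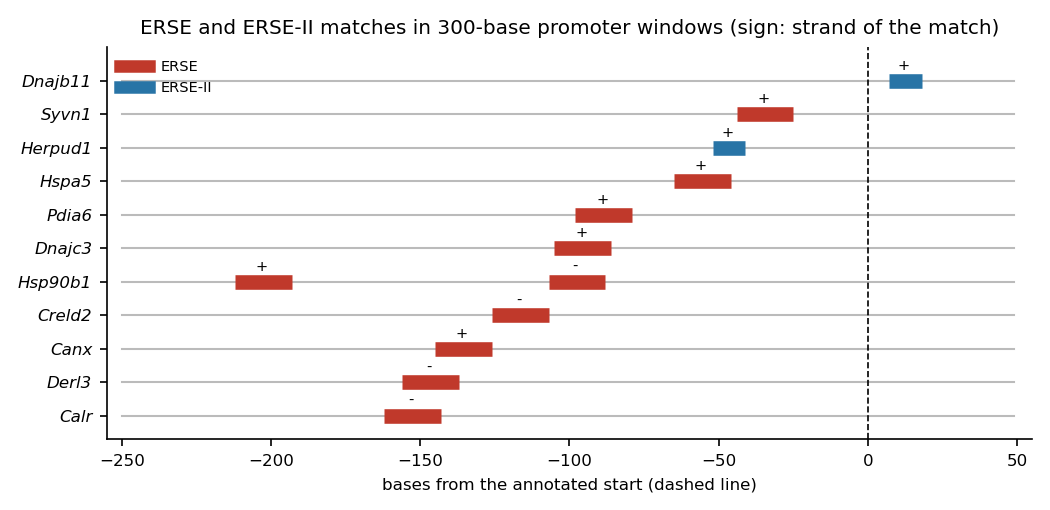
Position of each ERSE (red) and ERSE-II (blue) match in the 300-base RefSeq promoter windows of 11 members, as bases from the annotated start (dashed line). The sign above a match is its strand relative to the gene, and apart from that of Dnajb11 and the farther one of Hsp90b1 the matches lie between 162 and 26 bases before the start.

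For a chaperone, 2 degradation factors and a co-chaperone without either element, the 150 bases before the start are shown on the strand of the gene, with matches in capitals. Creld2 is a chaperone of the ER that rises under ER stress, Syvn1 (Hrd1) is the ubiquitin ligase of ER-associated degradation, Herpud1 helps to assemble that complex and Sdf2l1 is a partner of BiP.
Creld2, chr15:88819496-88819645, + strand: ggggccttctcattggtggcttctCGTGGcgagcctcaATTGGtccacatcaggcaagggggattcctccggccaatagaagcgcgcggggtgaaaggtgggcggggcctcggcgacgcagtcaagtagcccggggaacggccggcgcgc
Syvn1, chr19:6046426-6046575, + strand: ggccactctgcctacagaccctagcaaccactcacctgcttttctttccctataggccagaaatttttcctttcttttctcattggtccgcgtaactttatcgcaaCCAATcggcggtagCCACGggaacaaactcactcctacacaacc
Herpud1, chr8:94386279-94386428, + strand: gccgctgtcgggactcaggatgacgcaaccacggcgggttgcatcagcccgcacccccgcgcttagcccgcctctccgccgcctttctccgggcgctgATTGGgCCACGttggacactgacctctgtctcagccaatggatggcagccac
Sdf2l1, chr16:17132384-17132533, - strand: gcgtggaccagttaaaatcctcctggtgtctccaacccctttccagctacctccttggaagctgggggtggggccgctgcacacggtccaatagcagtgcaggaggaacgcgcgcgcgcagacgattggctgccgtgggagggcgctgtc
The stretch of Sdf2l1 held neither element.

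The members were abundant in liver. Their reads together made up between 0.777% and 1.02% of the reads outside the Mup genes in the 24 libraries. Compared per kilobase of annotated exon, the highest were P4hb, the disulfide isomerase that is also a subunit of prolyl 4-hydroxylase, at 464 CPM per kb, the lectin chaperone Calr at 245, Hsp90b1 at 224 and Herpud1 at 223. Hspa5 followed at 167 CPM per kb and the Ire1 target Xbp1 stood at 67.8. The lowest of those tested were Perk (Eif2ak3) at 2.80, Derl3 at 0.583 and Sec61g at 0.511 CPM per kb. Srp54a, a subunit of the signal recognition particle, was counted at 0.0527 to 0.818 CPM and did not pass the filter (0.66 CPM in at least 6 libraries), so 43 members were tested among 12330 genes. Hsp90b1 shares at least 100 bases at 98% identity only with Gm25745, which overlaps its own exons and is not among the counted genes. The transcripts of Srp54a share stretches of up to 3644 bases with Srp54b and Srp54c. Sec61b, Sec61g and Dnajb9 also share at least 100 bases at that identity with other genes. The counts of Srp54a, Sec61b, Sec61g and Dnajb9 are therefore uncertain. The same holds for members with exons that overlap a counted neighbour on the other strand, among them Srpr, Syvn1, Derl2, Pdia3 and Eif2ak3. The strand setting of the counting is not given in the sources used here. The exons of Manf overlap those of Rbm15b on the same strand, so its count is uncertain whatever that setting.

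The total count ranged from 15361901 to 26261394 per library. The deletion was seen in every KO mouse. The 22 Mup genes summed to between 17028 and 37393 CPM in mWT and between 3395 and 5259 CPM in fWT mice, and 9 of the 12 KO libraries held 0 Mup reads, with at most 11 reads in any of the others. The WT and KO mice did not overlap in either sex, and the exact two-sided permutation test gave 0.00216, the smallest p that 6 mice against 6 allow. Males therefore lost a cargo that made up 1.70% to 3.68% of all counted reads, and females one that made up 0.344% to 0.555%. Many Mup genes are near-identical, and the handling of reads that match several genes is not given in the sources used here. The size of these Mup shares is therefore uncertain.

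**Figure D2:**
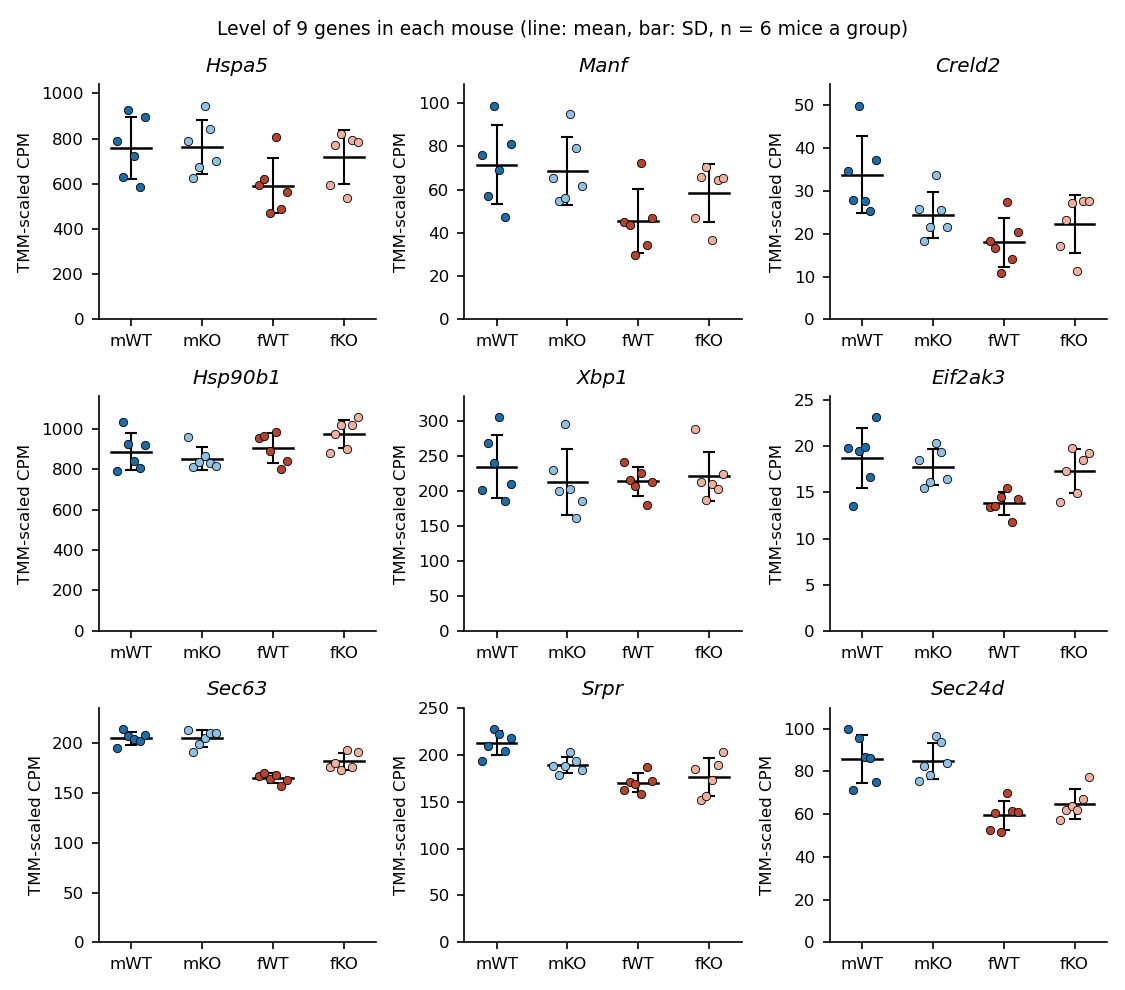
TMM-scaled CPM of 9 members in each of the 24 mice, by group, with the mean (line) and SD (bar) of 6 mice. Hspa5, Hsp90b1, Sec63 and Sec24d have similar levels in mWT and mKO mice, Sec63 and Sec24d lie lower in fWT than in mWT mice without overlap, and the spread between mice is widest for Manf and Creld2.

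In males, loss of the Mup cluster left no member of the set past the test's thresholds. Of the 43 members tested, 0 had an unadjusted p under 0.01 by edgeR, which is the study's own threshold, against 3.52% of all genes, and 0 had an adjusted p under 0.05 against 0.211% of all genes. At an unadjusted p under 0.05 there was 1 member against 10.6% of all genes, and DESeq2 also gave 0 members at 0.01. The log2 fold changes of the members had a median of −0.0056, with 18 above and 25 below 0, beside a median of −0.0021 over all genes. For 39 of the 43 (90.7%) the 95% interval lay within 0.5 of 0 on the log2 scale, against 69.5% of all genes. The other 4 members, Creld2, Sec61g, Sdf2l1 and Derl3, had wider intervals. The median standard error was 0.091 for the members and 0.115 over all genes, so intervals of the members were narrower in general.

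BiP, the sentinel of ER load, had overlapping levels in the male groups. Hspa5 (chr2:34771970-34777547) was expressed at 584, 756 and 928 CPM (lowest, median and highest) in mWT and at 627, 745 and 944 CPM in mKO mice, and the ranges overlapped. Its log2 fold change was 0.01 (95% interval −0.27 to 0.30, adjusted p = 0.991, by edgeR's quasi-likelihood test and the Benjamini-Hochberg method). Hsp90b1 (Grp94), the ER form of Hsp90, was expressed at 792, 879 and 1031 CPM in mWT and at 809, 833 and 957 CPM in mKO mice, and its estimate was −0.06 on the log2 scale (95% interval −0.21 to 0.097). Dnajb9 (ERdj4), a co-chaperone of BiP and a target of spliced Xbp1, had 50.5, 66.1 and 90.4 CPM in mWT and 51.6, 63.5 and 83.8 CPM in mKO mice. The groups overlapped for each of these genes.

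The other sentinels did not pass the test either, and Creld2 came nearest to it. Herpud1 ranged from 413 to 779 CPM in mWT (median 573) and from 358 to 751 CPM in mKO mice (median 600), and Sdf2l1 from 12.1 to 22.2 CPM (median 17.5) and from 9.54 to 22.3 CPM (median 17.3). Xbp1 had 186, 224 and 305 CPM in mWT and 161, 200.5 and 296 CPM in mKO mice. Total Xbp1 reads do not tell the spliced from the unspliced form. Creld2 had 25.4, 31.3 and 49.8 CPM in mWT and 18.3, 23.6 and 33.8 CPM in mKO mice, with the 2 groups overlapping, and its log2 fold change of −0.47 (95% interval −0.94 to 0.0025) was the only one of the chaperones beyond 0.2 in size, with an adjusted p of 0.475. Derl3, a channel component of ER-associated degradation, was near the limit of detection at 0.312 to 3.49 CPM in mWT and 0.369 to 1.997 CPM in mKO mice. The member with an unadjusted p under 0.05 was Srpr, the receptor of the signal recognition particle, with 194, 214 and 228 CPM in mWT and 178, 188 and 203 CPM in mKO mice (log2 fold change −0.17, 95% interval −0.31 to −0.029, adjusted p = 0.355).

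**Figure D3:**
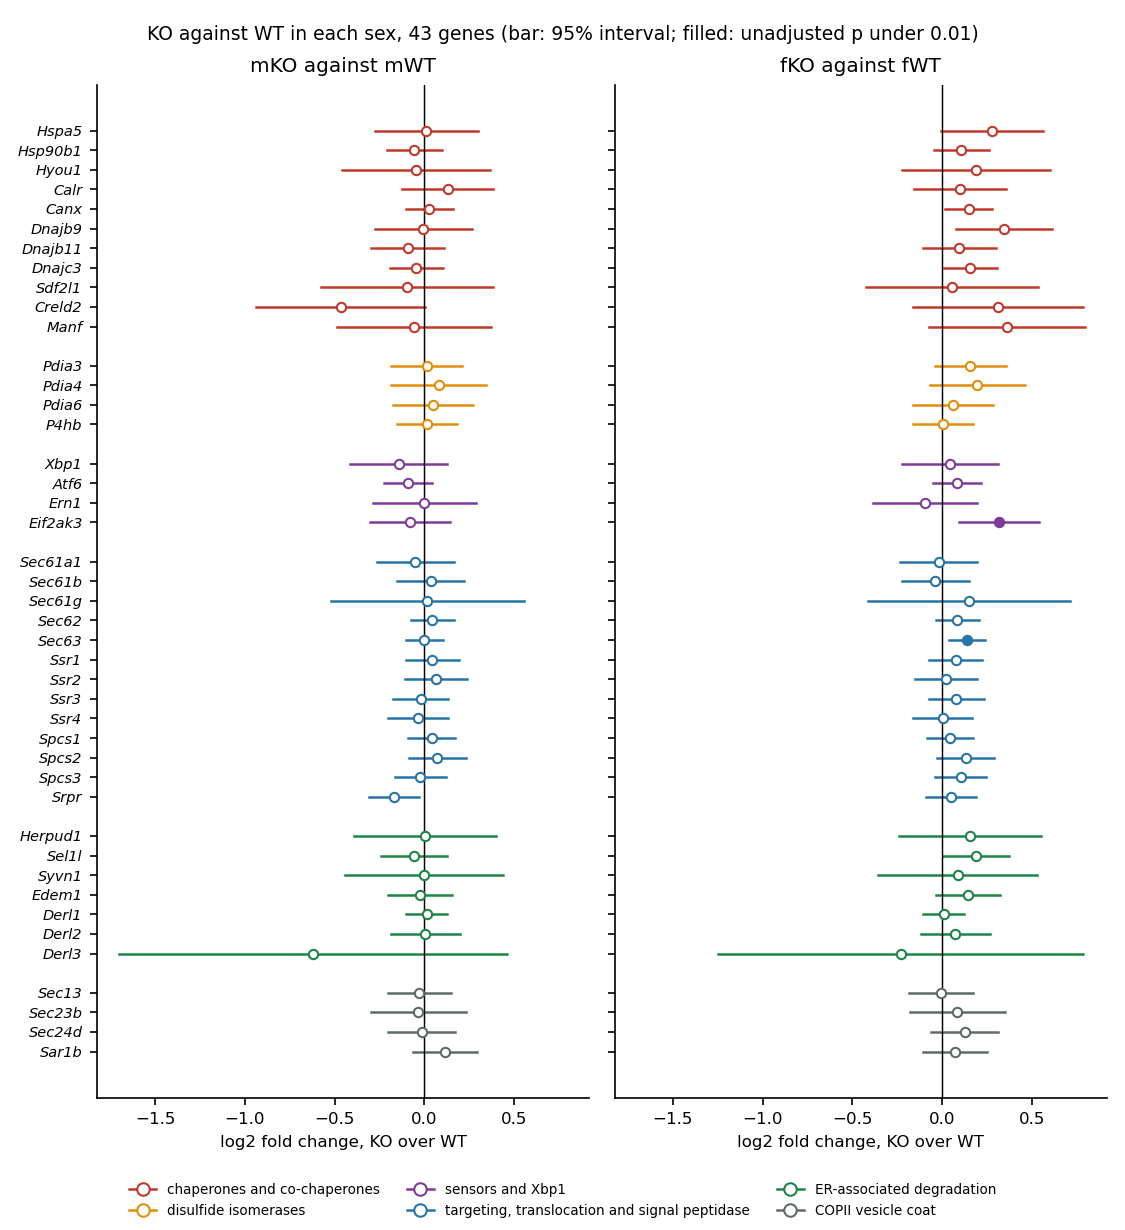
Log2 fold change of KO over WT for the 43 tested members in males (left) and females (right), with 95% intervals from edgeR and the members grouped by role; filled points have an unadjusted p under 0.01. The males centre on 0, while 38 of the 43 points in females lie above 0 and Eif2ak3 and Sec63 are filled.

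In females, which lost much less Mup, the members lay slightly higher in KO mice. Their median log2 fold change was 0.086, with 38 of 43 above 0, beside a median of −0.0026 over all genes. The members vary together from mouse to mouse, so the 38 are not independent. Markers of some other cells had lower estimates in the same comparison. This held for 5 of 5 Kupffer cell markers (median −0.32, summed level 118 to 219 CPM in fWT and 98.02 to 178 CPM in fKO mice), 5 of 5 stellate cell markers (median −0.087, 252 to 329 and 216 to 329 CPM) and 4 of 4 markers of sinusoidal endothelium (median −0.039, 113 to 150 and 107 to 156 CPM), with 0 of these at an unadjusted p under 0.01. Of the B and plasma cell markers tested, 2 of 3 were higher (median 0.15), as were 1 of 2 cholangiocyte and 4 of 6 hepatocyte markers. The part of any of these cells in the members' levels was not tested. By the unadjusted p under 0.01, 2 of the 43 were higher, against 0.406% of all genes, and by p under 0.05 there were 6, against 2.49%. With Benjamini-Hochberg adjustment over all genes 0 members passed (0.0892% of all genes did), and the adjusted p of both genes was 0.929.

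The 2 genes were a sensor and a translocation factor. Perk (Eif2ak3, chr6:70844515-70905245), which slows translation under ER stress, was expressed at 11.7, 13.9 and 15.4 CPM in fWT and at 13.9, 17.9 and 19.8 CPM in fKO mice. The ranges overlapped and the log2 fold change was 0.32 (standard error 0.11, 95% interval 0.095 to 0.54). Sec63 (chr10:42761496-42832514), which couples BiP to the translocation channel, had 157, 165 and 170.0 CPM in fWT and 173, 178 and 193 CPM in fKO mice. All fKO mice lay above all fWT mice, as for 0.122% of all genes, by a log2 fold change of 0.14 (standard error 0.049). Neither call survived every alternative. Without fKO mouse 2, 0 members passed, as without fWT mouse 1, fWT mouse 5 or fKO mouse 6 in turn, and scaling by library totals in place of TMM also left 0. In these fits 73 to 146 of all genes passed, against 108 in the main fit.

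The chaperones were all higher in fKO than in fWT mice by their estimates, 11 of 11, with a median of 0.16 on the log2 scale, and 0 passed 0.01. Dnajb9 had 42.1, 47.8 and 58.6 CPM in fWT and 51.4, 63.2 and 77.2 CPM in fKO mice (log2 fold change 0.34, 95% interval 0.076 to 0.61). Hspa5 had 471, 578 and 809 CPM in fWT and 535, 777 and 819 CPM in fKO mice, a log2 fold change of 0.28 (95% interval −0.0069 to 0.56). Here 4 of the 6 fKO mice lay between 770.1 and 819 CPM and 2 at 535 and 596 CPM, while fWT mouse 4, at 809 CPM, stood above the other fWT mice. Hsp90b1 had 799, 921 and 984 CPM in fWT and 881, 995 and 1055 CPM in fKO mice. Creld2 had 10.8, 17.5 and 27.3 CPM in fWT and 11.3, 25.1 and 27.7 CPM in fKO mice. Both overlapped between the genotypes.

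The remaining sentinels overlapped between fWT and fKO mice and did not pass the test. Herpud1 ranged from 335 to 531 CPM (median 458) in fWT and from 374 to 633 CPM (median 488) in fKO mice, Xbp1 from 179 to 241 CPM (median 214) and from 186 to 287 CPM (median 211), Sdf2l1 from 9.06 to 18.8 CPM (median 12.6) and from 8.08 to 17.1 CPM (median 16.04), and Derl3 from 0.511 to 2.74 CPM (median 1.02) and from 0.316 to 1.75 CPM (median 1.27). Canx, Dnajc3 and Sel1l completed the 6 genes with an unadjusted p under 0.05, with log2 fold changes of 0.15, 0.16 and 0.19. Canx is a lectin chaperone of the ER membrane, Dnajc3 (p58IPK) is a co-chaperone that restrains Perk, and Sel1l is the partner of Syvn1.

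Whether the KO effect differed between the sexes was tested directly. Of the 43 members, 0 had an unadjusted p under 0.01 for the difference (1.16% of all genes did), in edgeR and in DESeq2, and 3 had one under 0.05 against 5.96% of all genes. They were Creld2, Eif2ak3 and Srpr, in each of which the KO effect was lower in males than in females, by 0.78, 0.40 and 0.22 on the log2 scale (adjusted p = 0.823, 0.821 and 0.823). The median of the members was −0.13 with 36 of 43 below 0, beside 2.27e-05 over all genes. Averaged over both sexes the KO effect was small. At an unadjusted p under 0.01 there were 0 members (2.83% of all genes) and at 0.05 also 0 (9.57% of all genes), and DESeq2 gave 1 member under 0.01, Sec63. For 42 of the 43 (97.7%) the 95% interval lay within 0.5 of 0, against 84.4% of all genes. The median standard error was 0.064 for the members and 0.081 over all genes.

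The sex of the mice moved the members more than the deletion did. In fWT against mWT mice 15 of the 43 members fell at an adjusted p under 0.05, against 8.51% of all genes, and 0 rose, against 8.81% of all genes. At an unadjusted p under 0.05, 0 were higher, against 15.7% of all genes, and DESeq2 gave 17 lower and 0 higher at the adjusted cut-off. The median log2 fold change was −0.22 and 38 of 43 lay below 0, beside a median of 0.0020 over all genes.

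Among the chaperones, 3 of 11 fell. Creld2 (chr15:88819646-88826683) was at 17.5 CPM in the median fWT mouse and at 31.3 CPM in the median mWT mouse, and only the highest fWT mouse reached into the range of mWT mice (log2 fold change −0.91, standard error 0.23, edgeR adjusted p = 0.00762). Manf (chr9:106838312-106891979), a secreted factor kept in the ER until stress, had 29.9, 44.3 and 72.3 CPM in fWT and 47.1, 72.5 and 98.7 CPM in mWT mice (log2 fold change −0.65, adjusted p = 0.0336). Dnajb9 fell by 0.41 on the log2 scale (adjusted p = 0.0301). Of 34 alternative settings, 23 kept the call of Manf, 26 that of Dnajb9 and 34 that of Creld2. Hspa5 and Hyou1, the latter a large BiP relative, had estimates of −0.36 and −0.51 and adjusted p of 0.0756 and 0.0825, and Hsp90b1, Calr and Canx had estimates of 0.031, −0.036 and 0.0040.

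Of the sensors and Xbp1, 2 of 4 fell. Eif2ak3 was lower in fWT mice by 0.44 on the log2 scale (adjusted p = 0.00603), with 13.5, 19.6 and 23.1 CPM in mWT mice against the values of fWT mice given above, and Atf6 by 0.19 (adjusted p = 0.0494), the call nearest to the threshold, which was kept in 9 of 34 alternative settings. Xbp1 was at −0.14 and Ern1 at −0.16 (adjusted p above 0.05 for both). The 4 disulfide isomerases lay between −0.13 and −0.036, and 0 passed.

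The translocation machinery and the COPII coat held most of the calls. Of the 13 targeting and translocation genes tested, 6 fell. Sec63 had 194, 205 and 214 CPM in mWT mice, all above the highest fWT mouse at 170.0 CPM (log2 fold change −0.31, standard error 0.049, adjusted p = 4.51e-05). Srpr did not overlap either, with 158, 170.0 and 187 CPM in fWT mice below the lowest mWT mouse at 194 CPM (−0.32, adjusted p = 0.00144). The translocon-associated subunits Ssr1 and Ssr3 fell by 0.29 and 0.28, and the signal peptidase subunits Spcs2 and Spcs3 by 0.22 and 0.23, calls kept in 17 and 29 of the 34 settings. Of the COPII genes, Sec24d (chr3:123267455-123365641), which selects cargo, had 51.6, 60.7 and 69.8 CPM in fWT and 71.4, 86.5 and 99.9 CPM in mWT mice, with no overlap (−0.53, standard error 0.091, adjusted p = 0.000142). Its partner Sec23b fell by 0.52 with 27.8, 37.0 and 40.9 CPM in fWT and 37.6, 52.8 and 63.4 CPM in mWT mice, and the outer coat subunit Sec13 by 0.33, while the GTPase Sar1b that starts the coat was at −0.046. The groups did not overlap for 4 members, Sec63, Ssr3, Srpr and Sec24d, all lower in fWT mice, as for 3.66% of all genes. In degradation only Sel1l of 7 genes fell (−0.26, adjusted p = 0.0463, kept in 16 of the 34 settings), with 139, 153 and 188 CPM in fWT and 166, 181 and 220 CPM in mWT mice.

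**Figure D4:**
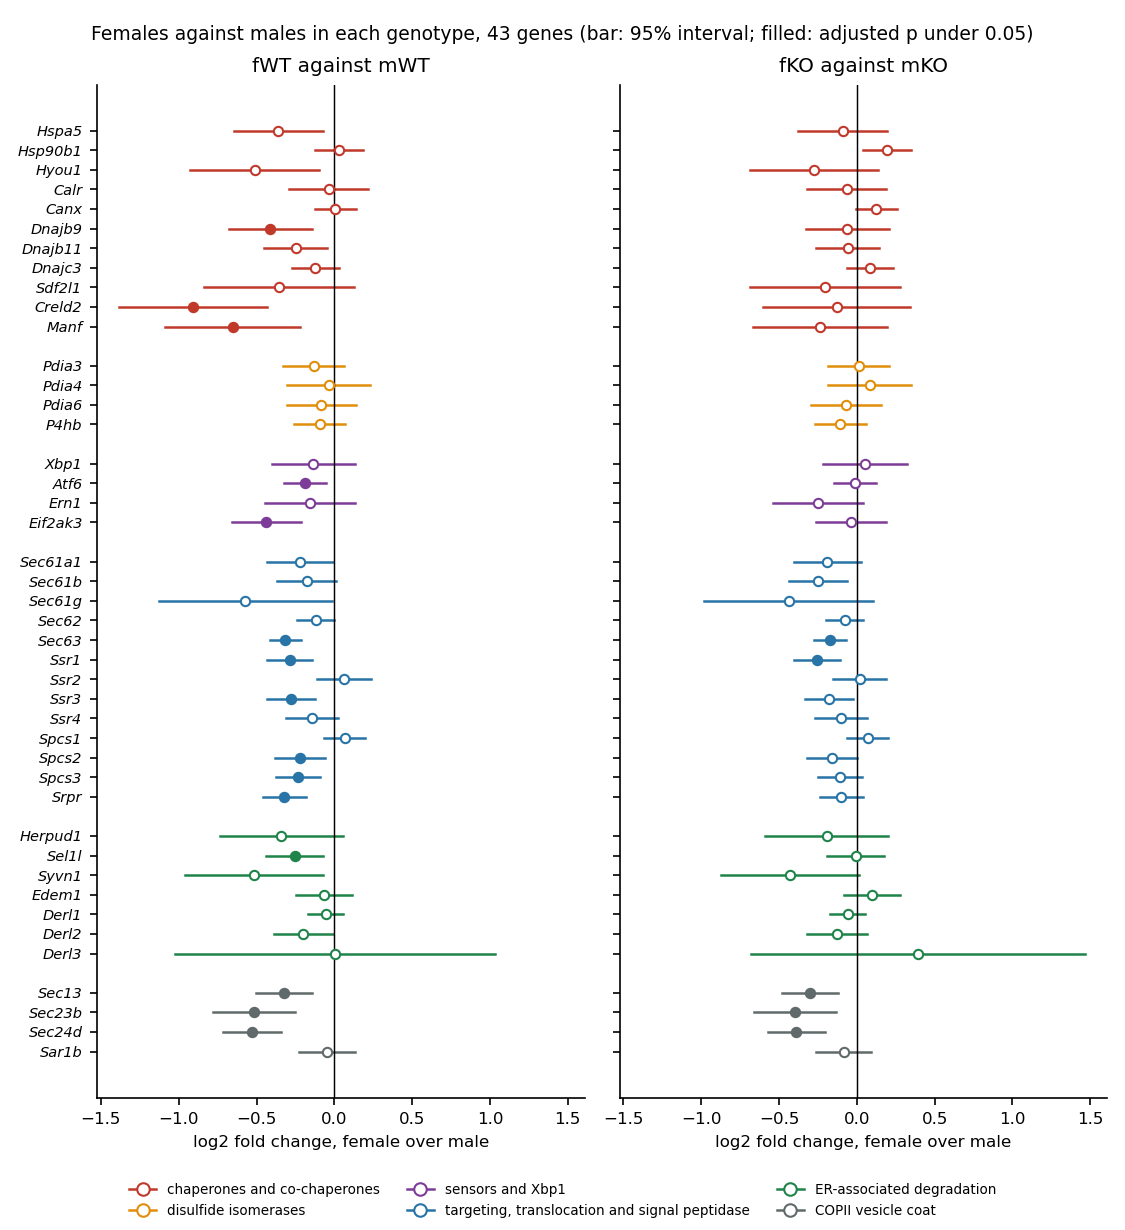
Log2 fold change of females over males for the 43 tested members in WT (left) and KO mice (right), with 95% intervals from edgeR and the members grouped by role; filled points have an adjusted p under 0.05. In WT mice 15 members are filled and in KO mice 5, all below 0.

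Without the Mup cluster the sexes were compared again. In fKO against mKO mice 5 members fell at an adjusted p under 0.05, against 7.26% of all genes, and 0 rose, against 7.13%. At an unadjusted p under 0.05, 1 was higher, against 14.5% of all genes, and DESeq2 gave 5 lower and 1 higher, Hsp90b1, at the adjusted cut-off. The 5 were Sec63 (−0.17), Ssr1 (−0.26), Sec13 (−0.30), Sec23b (−0.40) and Sec24d (−0.39), with adjusted p between 0.00380 and 0.0362 in edgeR. Sec24d had 57.0, 63.0 and 77.4 CPM in fKO and 75.4, 83.1 and 96.5 CPM in mKO mice. All 5 belong to translocation or the COPII coat and are among the 15 of the WT mice, which are different animals. Creld2 had an estimate of −0.13 and Eif2ak3 of −0.038 here. For neither was the difference between the sex effects of WT and KO mice past the adjusted threshold, as this is the same test as the difference between the KO effects given above. Without mKO mouse 4 or without fKO mouse 4, 3 members passed, Sec24d, Sec63 and Ssr1.

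In bulk liver, fewer cells of a type and less RNA per cell cannot be told apart. The hepatocyte markers stood at 87367 to 143828 CPM in sum in the 24 mice. Their sum had a median of 98532 CPM in mWT, 106706 in mKO, 112216 in fWT and 117876 in fKO mice. At an adjusted p under 0.05, 0 of the 6 differed in fWT against mWT mice and 1 was lower in fKO against mKO mice. Some markers of other cells also differed with sex. The 5 Kupffer cell markers summed to 65.7 to 131 CPM in mWT and 118 to 219 CPM in fWT mice, with 3 higher at an adjusted p under 0.05, the 5 stellate cell markers to 168 to 302 and 252 to 329 CPM, with 2 higher, and the 4 markers of sinusoidal endothelium to 101 to 122 and 113 to 150 CPM, with 2 higher. In fKO against mKO mice 0 of the Kupffer cell, 3 of the stellate cell and 1 of the endothelial markers were higher at that cut-off. Of all genes 8.81% were higher in fWT against mWT and 7.13% in fKO against mKO mice. The part of any of these cells in the lower levels of the members was not tested. The markers of B and plasma cells summed to 6.20 to 44.2 CPM and those of the pancreatic acinus to at most 0.879 CPM, with 1 of 5 at 0 in every library, and their part in the members' levels was not tested. Cholangiocyte markers summed to at most 5.07 CPM, T and NK cell markers to at most 2.31 CPM and adipocyte markers to at most 0.464 CPM.

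Within the groups, the mice differed along a common axis. After the mean of each group was subtracted from the log2 CPM, Manf followed Hspa5 over the 24 mice with a Pearson r of 0.975, and 0 of the other genes tested had a higher r. Creld2 (0.925), Hyou1 (0.913), Syvn1 (0.866), Pdia4 (0.832), Sel1l (0.810) and Eif2ak3 (0.782) came next, and Sdf2l1 had an r of 0.730. Of the 42 members other than Hspa5, 25 had an r over 0.5 and 5 one below 0, while the median over all genes was 0.011. These correlations are given as a description, since each pair of values comes from the same library.

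The axis was not shared by all members. The chaperones had a median r of 0.65 between pairs of their genes, the disulfide isomerases 0.45, the degradation factors 0.26, the translocation genes 0.23, the COPII genes 0.13 and the sensors with Xbp1 0.011. Xbp1 itself had an r of −0.099 with Hspa5, Atf6 one of −0.22, Herpud1 0.095 and Sar1b −0.48, the lowest of the members. The 8 members with an ERSE other than Hspa5 had a median r of 0.57, from 0.092 in Derl3 to 0.925 in Creld2, and the 27 members with a window and no ERSE one of 0.44, from −0.48 to 0.83. The SD within groups was 0.38 on the log2 scale for Manf, 0.42 for Creld2 and 0.88 for Derl3, against 0.055 for Sec63, and it had a median of 0.16 over the members and 0.20 over all genes.

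**Figure D5:**
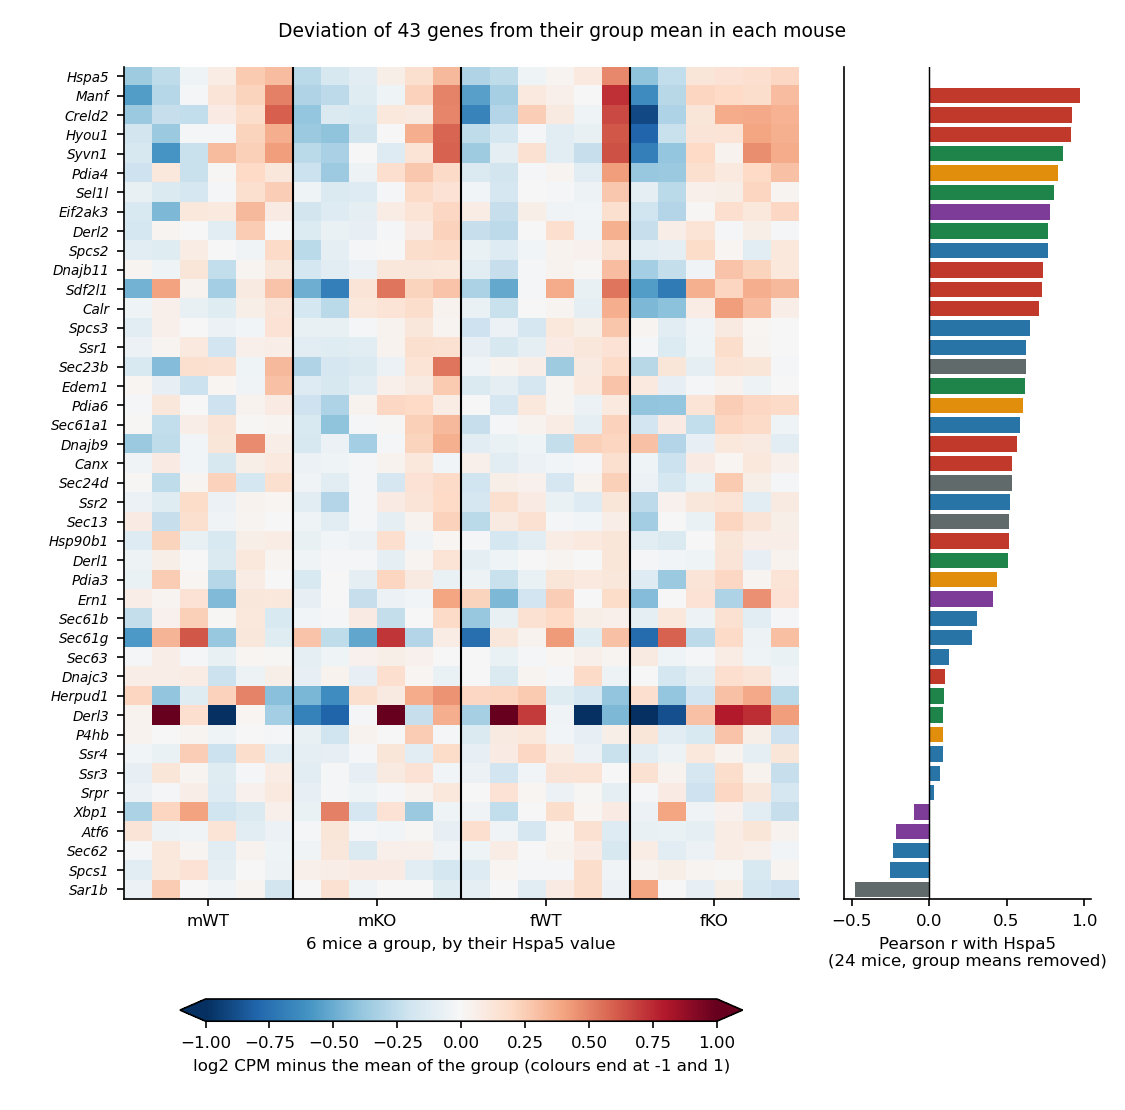
Left, log2 CPM of the 43 tested members in each mouse minus the mean of its group, with mice of each group ordered by Hspa5 and genes by their Pearson r with Hspa5 (right, bars coloured by role as in the plots of fold changes). Genes from Manf to Syvn1 run from blue to red with Hspa5 in all 4 groups, while the rows of Xbp1, Atf6 and Sar1b do not.

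The 5 genes outside the list with the highest r to Hspa5 were Ubxn4 (0.873), a membrane protein that anchors the degradation machinery to the ER, Gfpt1 (0.864), the first enzyme of the hexosamine pathway, Alg12 (0.863), a mannosyltransferase of glycan assembly, and the cytosolic chaperones Hsph1 (0.858) and Hspa8 (0.857). Alg12 is also 1 of the 8 tested non-members with an ERSE, whose median r was 0.35, from −0.25 to 0.863. Within single groups of 6 mice the r of these 5 genes ranged from 0.524 to 0.997.

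Lists of further ER genes were examined for the deletion. In mKO against mWT mice, 2 of 33 genes of targeting and the oligosaccharyltransferase were higher at an unadjusted p under 0.01, Emc10 (0.33) and Emc7 (0.18), both subunits of the ER membrane complex, and 0 genes passed among 34 folding and glycan enzymes, 23 degradation factors, 37 COPII and Golgi return genes, 10 further sensors and proteases and 16 genes of the integrated stress response downstream of Perk. In fKO against fWT mice 1 gene of these lists passed, Ddit3 (Chop), with 1.76 to 2.87 CPM in fWT and 2.05 to 5.09 CPM in fKO mice (log2 fold change 0.61, adjusted p = 0.929). The direction of the estimates in females differed from list to list, with 26 of 37 COPII and Golgi return genes, 17 of 23 degradation factors, 22 of 34 folding enzymes and 20 of 33 targeting genes higher in fKO mice, but 3 of 10 further sensors (median −0.094) and 7 of 16 stress response genes (median −0.041). Over both sexes Stt3b (0.14) and Emc7 (0.14) of the oligosaccharyltransferase list and Ddit3 (0.45) were higher and Sec31b (−0.27), a COPII subunit, was lower at 0.01, with adjusted p between 0.233 and 0.299 in edgeR. Of all genes 3.52% had an unadjusted p under 0.01 in males and 2.83% over both sexes. In fKO against fWT mice 0.406% of all genes were higher at that cut-off.

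For sex the lists differed from each other. Of all genes 8.51% fell and 8.81% rose in fWT against mWT mice. The median log2 estimate was −0.18 for the COPII and Golgi return genes, −0.15 for the degradation factors and −0.12 for the targeting genes, but −0.034 for the folding enzymes, −0.018 for the further sensors and 0.15 for the integrated stress response. In fWT against mWT mice 15 of 37 COPII and Golgi return genes fell at an adjusted p under 0.05 and 1 rose, with Sec22b (−0.55), Arf4 (−0.37) and Arcn1 (−0.31) first. Of the degradation factors 8 of 23 fell and 0 rose, led by Edem3 (−0.43), Ubxn4 (−0.39) and Nploc4 (−0.33). Of the targeting genes 8 of 33 fell and 2 rose, with Emc10 higher (0.64) and Sec11c (−0.37) and Tram1 (−0.29) lower, and of the folding enzymes 8 of 34 fell and 3 rose, with Fkbp11 (−1.36) and Tmx4 (−0.72) lower and Txndc16 (0.996) higher. In the list of further sensors Mbtps2 (−0.28), a protease that cleaves Atf6, was the 1 gene that fell, and in the integrated stress response Asns (−5.75), asparagine synthetase, fell and Vldlr (2.58) rose. In fKO against mKO mice 7.26% of all genes fell and 7.13% rose at the same cut-off. Of the lists, 4 of 37 COPII genes, 7 of 23 degradation factors and 3 of 33 targeting genes fell. So did 5 of 34 folding enzymes and 1 of 16 stress response genes, while 0, 0, 2, 2 and 1 genes rose in the same order of lists. Sec22b (−0.44), Ergic1 (−0.38) and Tmed9 (−0.50), Ubxn4 (−0.41), Ufd1 (−0.28) and Nploc4 (−0.24), Tmem258 (−0.36) and Emc9 (−0.46), Fkbp11 (−0.96) and Asns (−5.37) were lower, and Srp54c (0.53), Txndc16 (1.16), Prdx4 (0.42) and Vldlr (1.64) higher.

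The remaining cargo of the ER was set beside its machinery. Reads of 35 other secreted plasma proteins, albumin included, made up 22.1% ± 1.67 (SD, n = 6) of the reads outside the Mup genes in mWT, 22.7% ± 1.16 (SD, n = 6) in mKO, 24.2% ± 1.67 (SD, n = 6) in fWT and 24.9% ± 1.22 (SD, n = 6) in fKO mice. None of the differences passed an exact two-sided permutation test (p = 0.446 for males, p = 0.383 for females and p = 0.0606 for fWT against mWT mice). Gene by gene, 31 of the 35 lay higher in mKO mice, the median of the log2 estimates being 0.10. At an unadjusted p under 0.01, 8 were higher, led by Apoa2 (0.31), Apoc3 (0.31) and Apoc1 (0.30), with 0 past the adjusted threshold. Of all 12330 genes tested, 222 were higher at the unadjusted cut-off. In fKO against fWT mice 26 of 35 lay higher and 1 passed 0.01, Serpina1e (1.94), against 0.406% of all genes. The estimate of Serpina1e was −0.61 in mKO against mWT mice and −4.48 in fWT against mWT mice. With Mup counted as cargo, the share was 24.1% in mWT and 22.7% in mKO mice (exact permutation p = 0.102), the Mup reads being uncertain as stated above. Over both sexes all 35 lay above 0, with 6 higher at 0.01 (Fgg 0.29, Fga 0.29 and Fgb 0.23 first), against 184 of all 12330 genes.

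Genes that depend on the time of day and on feeding were checked because ER genes follow both. Of 14 clock genes tested, 2 were lower in the mKO group at an unadjusted p under 0.01, Per2 (−1.11) and Hlf (−0.35), against 212 of all 12330 genes. At 0.05 there were 5 of the 14, against 10.6% of all genes. In fKO against fWT mice 0 passed 0.01. Over both sexes Arntl (1.49) was higher and Cry2 (−0.24) lower at that cut-off, which 2.83% of all genes passed. In fKO against mKO mice Bhlhe41 (−1.50) fell at an adjusted p under 0.05, against 7.26% of all genes. Of 12 feeding and fasting genes 0 passed 0.01 in any comparison. The part of either in the levels of the members was not tested.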

How the data were processed

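Liver RNA of 24 mice was sequenced with 1 library per mouse and reads of 100 bp. The authors deposited raw counts per gene and library, obtained per their methods with featureCounts of Rsubread. The submitters' processing notes name bcl2fastq 2.19, fastp 0.20, STAR 2.7a, edgeR 3.28.1 and GRCm38.p6. The annotation release, the strand setting and the handling of multi-mapping reads are not given in the sources used here. Of 25746 gene IDs, 25712 were matched to GENCODE M21 for symbols and positions and 34 were not, and 7064 genes had no count in any library.

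The tests were run with edgeR 4.0.16 under R 4.3.3. A gene was kept when 6 or more libraries reached 0.66 CPM (12330 genes), libraries were scaled by TMM, and 1 quasi-likelihood model of the 4 groups with robust dispersions gave each contrast, with Benjamini-Hochberg adjustment over all 12330 genes. CPM are TMM-scaled. An unadjusted p under 0.01, the study's cut-off, served for the KO contrasts and an adjusted p under 0.05 for sex. Intervals are 95% intervals of the model. Sums were compared by exact two-sided permutation tests (scipy 1.17.1). For co-variation, log2 CPM (prior count 2) minus group means was used. Total counts of 15361901 to 26261394 put the level of 3 counts at 0.113 to 0.199 CPM, which covers counting error only. The p-values measure the spread between mice.

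The members, the further lists and the tests were chosen with earlier results of these data known. Named were the sentinels (Hspa5, Hsp90b1, Dnajb9, Sdf2l1, Creld2, Herpud1, Xbp1 and Derl3), up to 10 members and up to 3 genes of each further list per comparison with the smallest unadjusted p under 0.01, and the 5 genes most like Hspa5, while other names were chosen after their values were seen. The acinar marker Amy2a was not matched. Promoter windows came from RefSeq, read sharing from blastn 2.17.0 and figures from matplotlib 3.10.9. Scripts were tested on simulated data. Alternatives were DESeq2 1.42.0, its size factors, library totals, other filters, non-robust dispersions, a fit without Mup genes, fits within a sex or genotype, a replicate block and each mouse left out.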

Additional observations from a re-analysis of the deposited data

Results flagged for a closer look

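In 94 groups of 6 mice (21 members, the Mup sum and the shares of cargo and member reads), the highest or lowest mouse was compared with its neighbour. By chance about 1 in 20 groups is marked by Dixon's 95% limit on that gap relative to the whole range, and 5 groups were. In mKO, mouse 1 had 957 CPM of Hsp90b1, the next mouse 862. In fWT, mouse 4 had 188 CPM of Sel1l, the next 156. Derl3 was highest in mWT mouse 2, at 3.49 CPM with 1.21 CPM next, and in mKO mouse 1, at 1.997 CPM with 0.953 CPM next. The Mup genes summed to 5259 CPM in fWT mouse 3 and to 3999 CPM in the next fWT mouse.

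The effect of the KO differed between males and females at an unadjusted p under 0.05 in 3 members. The male effect minus the female effect was −0.78 in Creld2, −0.40 in Eif2ak3 and −0.22 in Srpr on the log2 scale, and edgeR's quasi-likelihood test gave unadjusted p of 0.0242, 0.0154 and 0.0293 and adjusted p of 0.823, 0.821 and 0.823. None passed the correction.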

How the results depend on the processing

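With library totals in place of TMM, 1 member was called in mKO mice, 0 were higher in fKO mice (main count 2) and 9 fell in fWT against mWT mice (main count 15), while 62.6% of all calls in the last comparison were higher in females against 50.9% with TMM. Of all genes, library totals called 429 in mKO mice (main count 434), 146 in fKO mice (108) and 2038 in fWT against mWT mice (2135). DESeq2 called 4 members in fKO mice and 1 over both sexes. Of all genes, DESeq2 called 146 in fKO mice (main count 108) and 447 over both sexes (349). It called 2390 in fWT against mWT mice (2135) and 1991 in fKO against mKO mice (1774). Without a filter on low counts, 1 member was called in fKO mice and 3 in fKO against mKO mice. Of all genes, 127 and 1605 were called there (main counts 108 and 1774). Removing the Mup genes left the counts of members called at 0, 2, 0, 0, 15 and 5 in the 6 comparisons.

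Mice were not treated as paired by replicate number in the main fit. Of 36 same-numbered pairs 10 had an r over 0.1 and the range was −0.34 to 0.25. Pairs with different numbers were not compared, so these values cannot show whether the numbers pair the mice. With the replicate number as a block, 1 member was called in fKO mice, 11 in fWT against mWT and 5 in fKO against mKO mice, 4 of them also called without the block. Of all genes, 91, 2062 and 1664 were called in the same order (main counts 108, 2135 and 1774).

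With each mouse left out in turn, the calls ranged from 0 to 0 in mKO mice and over both sexes, from 0 to 4 in fKO mice (4 without fWT mouse 4 or fKO mouse 1), from 0 to 2 for the difference between the sexes (2 without fKO mouse 4, 1 without mWT 2, mKO 4, fWT 4, fKO 1 or fKO 2), from 9 to 19 in fWT against mWT mice (9 without mWT mouse 3) and from 3 to 7 in fKO against mKO mice. Over the same fits, the calls among all genes ranged from 73 to 157 in fKO mice and from 103 to 208 for the difference between the sexes. They ranged from 1652 to 2209 in fWT against mWT mice and from 1414 to 1824 in fKO against mKO mice. Of the 15 and 5 sex calls of members, 9 and 2 passed under every alternative. The Hspa5 estimate in mKO mice ranged from −0.060 to 0.077 over mice left out and was −0.0056 with library totals. Creld2 ranged from −0.14 to 0.0025 over both sexes (0.0025 without fWT mouse 4) and from −0.20 to 0.0042 in fKO against mKO mice (0.0042 without fKO mouse 4). Without fWT mouse 4, Hspa5 was called in fKO mice (0.39).

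With Mup counted as cargo, the cargo share of mKO minus mWT mice was −1.43 percentage points in place of 0.649, and as a share of all counted reads fWT mice were 2.59 points above mWT mice (exact permutation p = 0.0260). The cause of these changes was not tested, and the Mup reads in both are uncertain. Derl3, Sec61g and Srp54a had low counts, and for Sec61g and Srp54a low depth and reads shared with other genes cannot be told apart.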

Other observations

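Among WT mice, the Mup sum and the levels of Hspa5 and Creld2 were set side by side from mouse to mouse, a choice made after seeing the data. With 4 relations computed over 6 mice each, exact permutation tests gave no adjusted p under 0.05. In mWT mice Pearson's r of Hspa5 with Mup was −0.051 (exact p = 0.939, adjusted p = 0.939) and Spearman's rho 0.20 (exact p = 0.714), with an r of 0.34 without the 2 mice farthest from the median of Mup. For Creld2 these values were −0.11 (exact p = 0.869, adjusted p = 0.939), 0.086 (exact p = 0.919) and 0.57. In fWT mice the r of Hspa5 was −0.51 (exact p = 0.178, adjusted p = 0.356), rho −0.49 (exact p = 0.356) and the r without 2 mice −0.67. For Creld2 they were −0.62 (exact p = 0.103, adjusted p = 0.356), −0.60 (exact p = 0.242) and −0.66.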
